A study of Mus musculus with 2 samples.

Results

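The genes encoding the subunits of the glutamate, GABA and glycine receptors were described across neurons of the mouse hypothalamus. They were taken by symbol from the gene list of the deposited matrix: the AMPA (Gria), kainate (Grik), delta (Grid), NMDA (Grin) and metabotropic (Grm) glutamate receptor genes, the GABAA (Gabr) and GABAB (Gabbr) receptor genes, and the glycine receptor genes (Glra, Glrb). This gave 52 genes of the 32285 measured, and no measured value entered the choice. The nuclei came from male C57BL/6J wild-type mice aged 10 to 12 weeks, with no treatment named. Nuclei stained for NeuN, a neuronal nuclear protein, were sorted and read with droplet single-nucleus RNA sequencing. They were deposited as 1 gene expression library and 1 hashtag library, labelled as hypothalamus ARC (arcuate nucleus). A hashtag is an antibody with a barcode that marks the preparation a nucleus came from. The matrix carried 2 hashtags, named ARC and PVH, and the labels do not describe the nuclei of the second. Animals within a hashtag could not be told apart. There was thus 1 pooled sample with no replicates, so no difference below was tested, and every interval is an exact 95% interval that covers counting error only.

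Fast excitation in the brain runs through AMPA, kainate and NMDA receptors, which are cation channels assembled from several subunits, and fast inhibition through GABAA and glycine receptors, which are chloride channels assembled likewise. Metabotropic glutamate receptors and GABAB receptors act more slowly through G proteins. The subunits that a neuron makes set the kinetics, calcium entry and drug sensitivity of its channels. In the arcuate nucleus, neurons that make AGRP drive hunger and neurons that make POMC promote satiety, and both receive glutamate and GABA inputs that shift with feeding state.

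Levels are given as CPM, the unique molecular identifiers (UMIs) of a gene per 1000000 UMIs of a group of nuclei. After filters on genes, UMIs and mitochondrial share, 10170 of 11409 barcodes remained, of which 3767 carried the ARC hashtag alone and 3074 the PVH hashtag alone. Clusters were made within each hashtag with the receptor genes left out of the variable genes, so that no cluster was defined by them. The 13 ARC clusters and 15 PVH clusters all carried neuronal markers, and they were named only where fixed markers allowed it. ARC cluster 2 (575 nuclei) and PVH clusters 1 (488 nuclei) and 3 (346 nuclei) also carried 3 or more markers of astrocytes, oligodendrocytes or, in ARC cluster 2, tanycytes, and are called mixed. All 40 non-neuronal markers summed to 884 CPM in ARC cluster 2 and to 639 and 425 CPM in PVH clusters 1 and 3, against 266 to 507 CPM in the other clusters. Of these markers 39 had a UMI in ARC and 38 in PVH neurons, with Cldn5 at 0 in both and Tmem119 at 0 in PVH neurons. Their part in the results was not tested, and each lead count is given without these clusters too. Transcripts of 1 neuron class were also counted in clusters of other classes. RNA from outside the nucleus (free RNA) and errors in hashtag assignment cannot be told apart as the source. Agrp, which AGRP neurons make, stood at 281 CPM in the AGRP-like cluster, at 98.1 to 170 CPM in the other ARC clusters and at 122 to 183 CPM in the PVH clusters, where no AGRP-like cluster was found. The part of free RNA or hashtag errors in the results was not tested, and for most receptor genes the lowest cluster level is given beside the highest.

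For 4 genes that differed in opposite directions between neuron groups, the 250 bases before an annotated start site are shown (RefSeq, GRCm38.p6). They are written 5′ to 3′ on the gene's strand in lower case, with capitals marking matches to 8 motifs on either strand. The motifs were the GC box (GGGCGG), the TATA box (TATAAA), the cAMP response element (TGACGTCA), a homeodomain site (TAATTA), the SF-1 site (AAGGTCA), the EGR site (GCGTGGGCG), the left part of RE1 (TCAGCACC) and the E box (CACGTG). None of the printed windows overlapped an annotated exon. Gabrb2 (chr11:42420190-42420439, plus strand) and Gabra5 (chr7:57510060-57510309, minus strand) are shown because they differed in opposite directions between the hashtags. Grik3 (chr4:125490446-125490695, plus strand) and Grm3 (chr5:9725353-9725602, minus strand) are shown because they differed in opposite directions between the Sim1 clusters and other PVH neurons.
Gabrb2: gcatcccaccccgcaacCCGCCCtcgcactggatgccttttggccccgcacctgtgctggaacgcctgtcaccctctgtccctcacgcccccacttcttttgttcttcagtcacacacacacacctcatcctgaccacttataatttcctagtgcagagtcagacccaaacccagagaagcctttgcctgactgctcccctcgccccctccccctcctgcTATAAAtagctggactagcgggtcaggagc
Gabra5: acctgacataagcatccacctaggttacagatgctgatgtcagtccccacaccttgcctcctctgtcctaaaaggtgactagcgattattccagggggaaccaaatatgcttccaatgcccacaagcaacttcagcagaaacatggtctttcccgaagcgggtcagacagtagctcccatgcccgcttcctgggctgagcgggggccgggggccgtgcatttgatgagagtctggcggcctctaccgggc
Grik3: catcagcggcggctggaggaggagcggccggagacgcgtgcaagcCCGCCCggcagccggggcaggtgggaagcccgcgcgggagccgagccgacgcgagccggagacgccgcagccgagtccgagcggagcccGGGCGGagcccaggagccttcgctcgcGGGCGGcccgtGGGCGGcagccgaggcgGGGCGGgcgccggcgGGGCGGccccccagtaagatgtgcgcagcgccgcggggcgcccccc
Grm3: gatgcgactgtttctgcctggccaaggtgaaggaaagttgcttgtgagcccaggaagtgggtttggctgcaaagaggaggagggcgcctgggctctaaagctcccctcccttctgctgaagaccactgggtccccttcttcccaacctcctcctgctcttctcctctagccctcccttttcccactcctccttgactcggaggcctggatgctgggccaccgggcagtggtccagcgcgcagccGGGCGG
The window of Grik3, at 82.0% G and C, held 6 GC boxes, while those of Gabrb2 and Grm3 each held 1. The Gabrb2 window also held a TATA box, and the Gabra5 window held no match. Windows before other Gabrb2 start sites (chr11:42420524-42420773 and chr11:42420951-42421200), not shown, held no match either. Of 32851 mouse promoter windows of this length, 32.7% held a GC box and 12.4% a TATA box. Promoter windows were found for 36 of the 52 genes (43 windows), and 48.8% of these held a GC box. Their median share of G and C was 58.8%, against 52.4% over all windows.

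The 52 genes lay on 14 chromosomes (GENCODE M21, GRCm38). Many GABAA genes sit side by side. Gabra6 and Gabrb2 lie on chromosome 11 between 42306437 and 42629028, and Gabrg3 and Gabra5 on chromosome 7 between 56716465 and 57510059. Gabrg1, Gabra2, Gabra4 and Gabrb1 lie on chromosome 5 between 70751047 and 72149037, and Gabre, Gabra3 and Gabrq on the X chromosome between 72255999 and 72842602. Gabra5 overlaps a gene on the opposite strand, the starts of Gabra4 and Gabrb1 overlap on opposite strands, and Grin1 overlaps the antisense gene Grin1os. The sources used here do not say whether counting used strand, so values of these overlapping genes are less certain.

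Of the 52 genes, 50 had at least 1 UMI in neurons and 42 had at least 100 UMIs. The other 10 were near 0. Grm6, a receptor of retinal bipolar cells, and Gabra6, a subunit of cerebellar granule cells, had 0 UMIs, where a floor of 3 UMIs over all neurons corresponds to 0.0828 CPM. Gabrp had 2 UMIs, Gabrr3 had 1, Gabrr1 had 19, Gabrr2 had 37, Grin2c had 13, Grin3b had 18, Gabrd had 21 and Grm2 had 50 over all neurons. The rho subunits (Gabrr1 to Gabrr3), known from the retina, and the delta subunit (Gabrd), known from extrasynaptic receptors of the forebrain and cerebellum, were thus at 1.02 CPM or less.

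Over the 42 genes with enough UMIs, the level followed the length of the gene. Spearman's rho between CPM and gene span was 0.764, a description across genes that share 1 library. Levels were therefore compared between genes per 100 kb of span. On that scale Grin1, the obligatory NMDA receptor subunit, was highest at 1019.8 CPM per 100 kb. It was followed by Gria2, the AMPA subunit that limits calcium entry (665 CPM per 100 kb), and Gabbr1, the GABA-binding GABAB subunit (362 CPM per 100 kb). Gabra2 stood at 273, Gria4 at 254, Grik5 at 225, Gria1 at 211 and Glrb at 195 CPM per 100 kb. The lowest of the 42 was Grm4 at 7.39 CPM per 100 kb, below Glra2 at 21.4 and Glra4 at 24.7 CPM per 100 kb. The order at the top depended on this scale. Per kb of exon, Gria4 (152.4 CPM) and Grm7 (151.6 CPM) were highest. Gria2 stood there at 51.9, Grin1 at 29.45 and Gabbr1 at 13.6 CPM per kb.

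**Figure D1:**
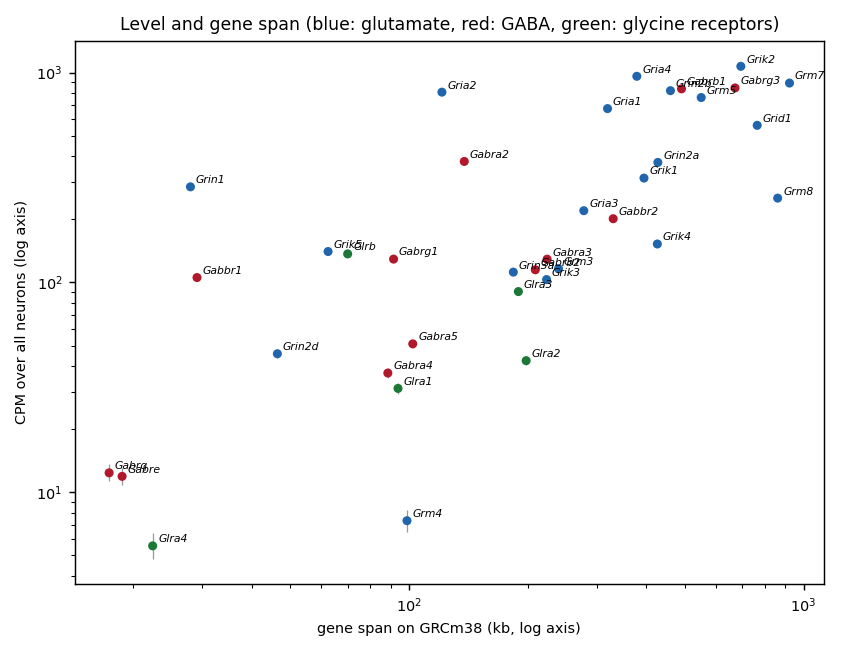
Level over all neurons (CPM, log axis, with exact 95% Poisson intervals) against gene span on GRCm38 (kb, log axis) for 37 receptor genes with at least 100 UMIs. Levels follow span (Spearman's rho 0.764 over 42 genes), and Grin1, Gabbr1 and Gria2 lie above genes of like span while Grm4 lies below.

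Across the ARC clusters, a core of subunits varied little and others varied widely. In the 13 ARC clusters the highest level exceeded the lowest by 1.35-fold for Gria2, 1.44-fold for Gabbr1, 1.47-fold for Glrb, the anchoring beta subunit of glycine receptors, 1.501-fold for Grik5 and 1.504-fold for Grin1. In the 15 PVH clusters the corresponding ratio was lowest for Grin2b (1.65-fold), followed by Gabrb1 (1.86-fold) and Grin1 (2.07-fold). Gria2 and Glrb were less even there, at 413 to 1008.8 CPM and 66.9 to 177 CPM. At the other end, the highest ARC cluster exceeded the lowest by 63.2-fold for Grik1, 37.6-fold for Glra3, 23.4-fold for Glra2 and 14.4-fold for Grm5. Glra1 ran from 2.36 CPM (3 UMIs) to 64.2 CPM, and Grm4 from 0.783 CPM (1 UMI) to 18.3 CPM, where the lowest levels rest on too few UMIs for a stable ratio.

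**Figure D2:**
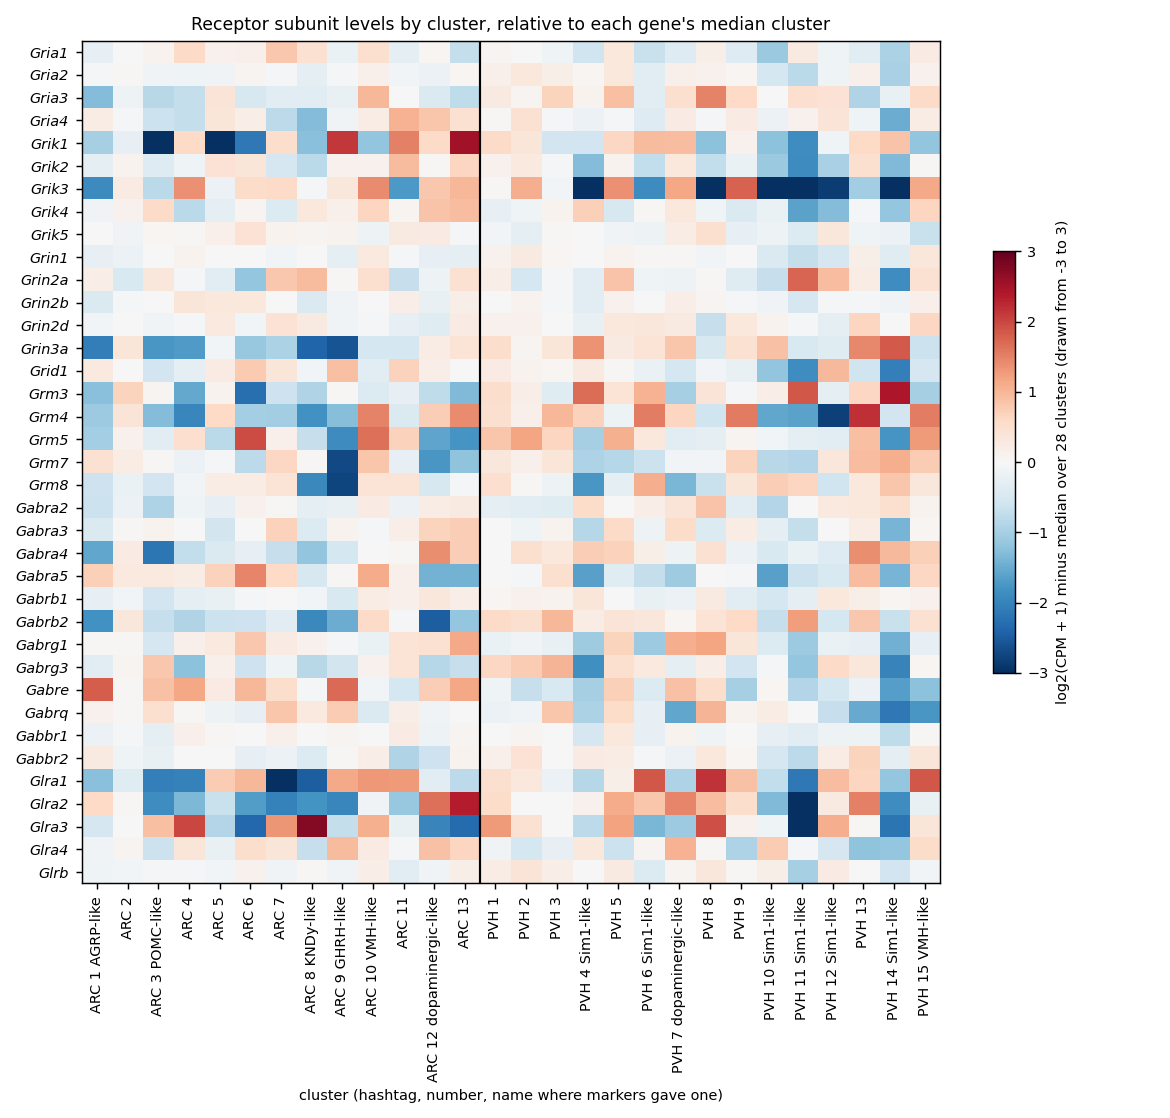
Level of 37 receptor genes (rows) in 13 ARC and 15 PVH clusters (columns) as log2(CPM + 1) minus the gene's median over the 28 clusters, drawn between -3 and 3. Rows of Gria2, Grik5, Grin1, Gabbr1 and Glrb are pale across the ARC columns, while Grik1, Grik3, Grm5, Glra1, Glra2 and Glra3 change colour from cluster to cluster.

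Among AMPA subunits, Gria2 ran in the ARC clusters from 668 CPM in the KNDy-like cluster to 901 CPM in the VMH-like cluster. In the PVH clusters it ran from 413 CPM (cluster 14) to 1008.8 CPM (cluster 5). KNDy neurons make kisspeptin, neurokinin B and dynorphin. VMH-like clusters carry markers of the neighbouring ventromedial hypothalamus. Gria4, whose channels have fast kinetics, ran from 328 CPM in PVH cluster 14 to 1921.8 CPM in ARC cluster 11. On the ARC side it was lowest in the KNDy-like cluster (376 CPM). Gria1 was lowest in PVH cluster 10 (312 CPM) and highest in ARC cluster 7 (1179.8 CPM), with ARC cluster 13 (408 CPM) the lowest on the ARC side. Gria3 was lowest in the AGRP-like cluster, at 84.3 CPM, and reached 413 CPM in the VMH-like cluster and 591 CPM in PVH cluster 8. Over all ARC and PVH clusters the AMPA genes thus peaked in different clusters, with Gria2 the most even of the 4.

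Of the kainate receptor genes, Grik1 and Grik3 varied widely and Grik5 little. Grik1 stood at 1566.0 CPM (1473.9 to 1662.3) in ARC cluster 13 and at 1195.5 CPM (1131.2 to 1262.5) in the GHRH-like cluster, which carries the growth hormone-releasing hormone gene. It stood at 24.8 CPM (17.8 to 33.6) in the POMC-like cluster and at 24.9 CPM (17.3 to 34.9) in ARC cluster 5. The intervals of the lowest pair overlapped, and those of the highest pair did not. Grik3 ran from 23.4 CPM in the AGRP-like cluster to 246 CPM in the VMH-like cluster, and on the PVH side from 5.43 CPM (3 UMIs) in cluster 14 to 314 CPM in cluster 9. Grik2, the most counted of the group, ran from 307 CPM in PVH cluster 11 to 2168.6 CPM in ARC cluster 11. Grik4 and Grik5 encode subunits that join the others to raise agonist affinity. Grik4 reached 282 CPM in ARC cluster 13, and Grik5 stayed between 87.4 and 192 CPM over all 28 clusters.

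Of the NMDA receptor genes, Grin1 stayed between 178 and 369 CPM in all 28 clusters. Grin2a and Grin2b, the subunits that set deactivation speed, differed in spread. Grin2b ran from 584 to 1077.1 CPM, and Grin2a from 92.4 CPM in PVH cluster 14 to 1137.0 CPM in PVH cluster 11. These are the clusters with the most Avp (1483.4 CPM, cluster 14) and the most Oxt (2012.8 CPM, cluster 11), the vasopressin and oxytocin genes, a pair picked after the values were seen. Grin3a, a subunit that lowers calcium entry, ran from 17.6 CPM in the GHRH-like cluster to 398 CPM in PVH cluster 14. Grid1, a delta receptor gene whose product binds cerebellin at synapses, ran from 127 CPM in PVH cluster 14 to 1036.2 CPM in PVH cluster 12.

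Among metabotropic receptors, Grm5, a group I receptor coupled to phospholipase C, was highest in ARC cluster 6. It stood there at 2379.7 CPM (2295.2 to 2466.6) against 568 CPM in the other ARC neurons. Cluster 6 had no class name, and its leading genes included Htr3b and Vgll3. The lowest Grm5 level was 166 CPM in the GHRH-like cluster, with 180 CPM in ARC cluster 13 and 181 CPM in PVH cluster 14. The group III genes Grm7 and Grm8, presynaptic inhibitory receptors, were lowest in the GHRH-like cluster at 130 CPM and 37.9 CPM, against 930 CPM and 232 CPM in the other ARC neurons. Grm3, a group II receptor that astrocytes also make, was highest in PVH clusters 14 (540 CPM), 11 (366 CPM) and 4 (321 CPM), none of which is mixed.

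The GABAA alpha subunits set the drug profile of the receptor. Gabra2 ran from 208 CPM in the POMC-like cluster to 724 CPM in PVH cluster 8. Gabra4 stood at 97.2 CPM (78.4 to 119) in the dopaminergic-like ARC cluster and at 7.25 CPM (12 UMIs) in the POMC-like cluster. Gabra5 ran from 13.6 CPM in PVH clusters 4 and 10 to its highest level in ARC cluster 6, at 2.17 times that of the other ARC neurons. Of the beta subunits, Gabrb1 stayed between 577 and 1113.7 CPM, while Gabrb2 ran from 20.1 CPM in the dopaminergic-like ARC cluster to 276 CPM in PVH cluster 11. Gabrg3, a gamma subunit, ran from 199 CPM in PVH cluster 14 to 1636.0 CPM in PVH cluster 3. Gabre, an X-linked subunit, was highest in the AGRP-like cluster at 29.95 CPM (24.8 to 35.8), with the GHRH-like cluster next at 27.7 CPM (18.7 to 39.6), and these intervals overlapped. Of the GABAB genes, Gabbr1 stayed between 63.4 and 136 CPM and Gabbr2 between 106 and 317 CPM.

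Glycine receptor genes were arranged by class. Glra3 stood at 418 CPM (380 to 460) in the KNDy-like cluster against 74.1 CPM in the other ARC neurons, and next at 250 CPM (223 to 279) in ARC cluster 4. It was at 6.31 CPM (5 UMIs) in PVH cluster 11. Glra2, the alpha subunit best known from development, stood at 184 CPM (154 to 219) in ARC cluster 13 and at 113 CPM (92.7 to 137) in the dopaminergic-like cluster, and at 2.52 CPM (2 UMIs) in PVH cluster 11. Glra1, the adult spinal cord subunit, was highest in PVH cluster 8 at 119 CPM (99.7 to 141) and on the ARC side in the VMH-like cluster (64.2 CPM), with ARC cluster 11 (63.8 CPM) not apart from it. The 3 alpha genes peaked in different clusters while Glrb stayed between 66.9 and 177 CPM.

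The first comparison set neurons with the PVH hashtag against those with the ARC hashtag. Sim1, a transcription factor gene, was higher on the PVH side (109 against 10.6 CPM), and Agrp stood at 152 against 174 CPM. Of the 206 Sim1 UMIs in ARC neurons, 168 lay in mixed ARC cluster 2 (58.6 CPM), against 0 to 4.35 CPM in the other ARC clusters. Crh, Pou3f2 and Ntng1, listed as markers with Sim1, were also at 1.5-fold or more in mixed ARC cluster 2. The source of these transcripts there was not tested. Non-neuronal markers summed to 419 CPM on the PVH side and to 464 CPM on the ARC side. A gene was counted as past the fold at a CPM ratio of at least 1.5 or at most 0.667 with 100 UMIs or more. Of the 42 receptor genes, 9 were higher and 2 were lower with the PVH hashtag, where 4.41% of all 14114 genes were higher and 4.21% lower (8.62% in either direction). The median ratio was 1.06 over the receptor genes and 0.968 over all genes. Without the mixed clusters the counts were again 9 and 2, where 4.79% of all genes were higher and 4.99% lower. Genes pass the UMI minimum more easily through the group where they are high, so the counts describe the genes that passed and not the whole family.

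Grin3a stood at 164 CPM (158 to 171) with the PVH hashtag and at 67.2 CPM (63.6 to 70.9) with the ARC hashtag, a ratio of 2.45 (2.29 to 2.62). Grm3 stood at 163 CPM (157 to 169) against 76.5 CPM (72.7 to 80.5), a ratio of 2.13 (2.00 to 2.27). Gabrb2 stood at 161 CPM (155 to 167) against 75.6 CPM (71.8 to 79.6), a ratio of 2.12 (1.99 to 2.27). None of these pairs of intervals overlapped. Gria3 (282 against 166 CPM, ratio 1.69), Gabra4 (46.4 against 28.9 CPM, ratio 1.61), Glra1 (39.7 against 23.96 CPM, ratio 1.66) and Grm4 (9.62 against 5.34 CPM, ratio 1.80) were also higher.

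On the other side, Gabre stood at 6.81 CPM (5.62 to 8.18) with the PVH hashtag and at 16.3 CPM (14.5 to 18.2) with the ARC hashtag, a ratio of 0.419 (0.335 to 0.521). Gabra5 stood at 38.2 CPM (35.3 to 41.3) against 61.9 CPM (58.5 to 65.5), a ratio of 0.617 (0.560 to 0.679). The remaining 31 genes lay inside the fold, with Glra2 at 1.37 the highest of them. Kainate receptor, delta receptor and GABAB receptor genes had no member past the fold in this comparison.

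**Figure D3:**
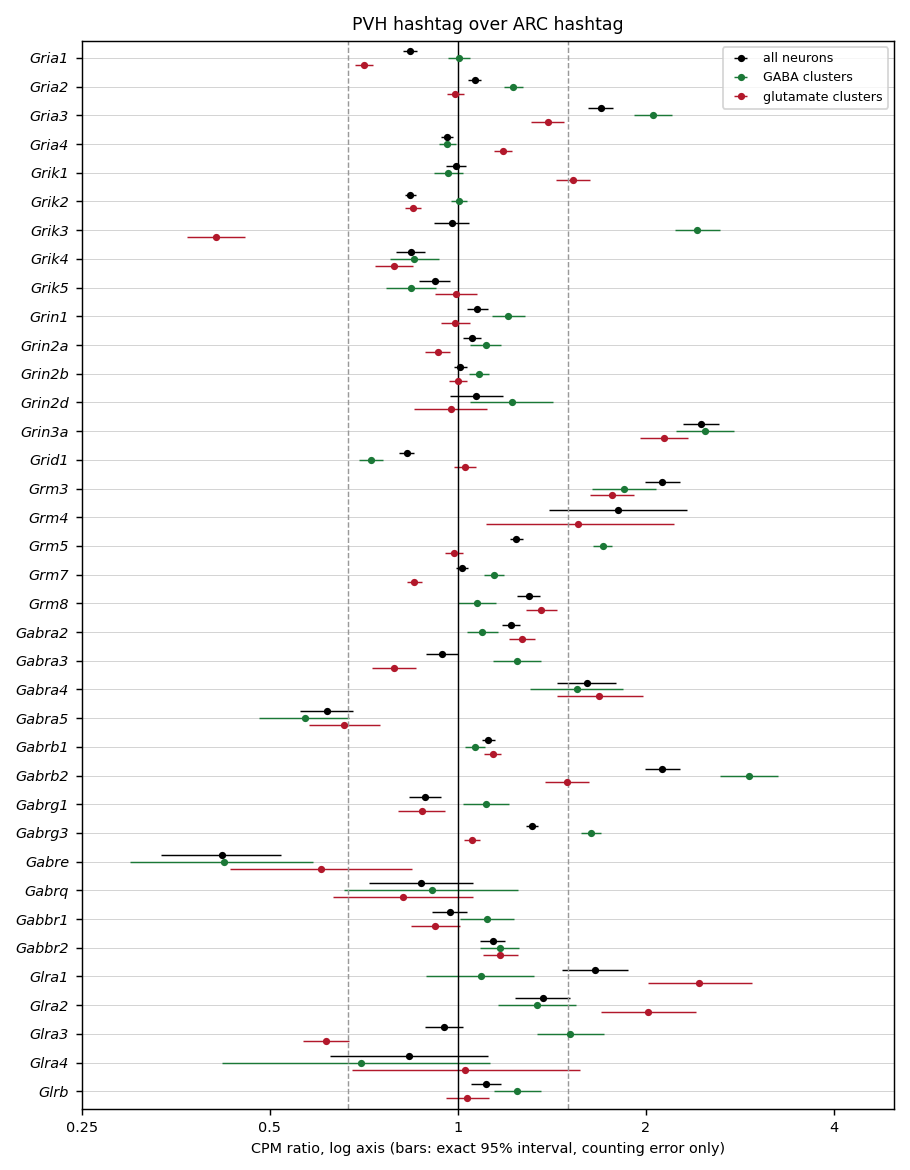
CPM ratio of PVH-hashtag over ARC-hashtag neurons (log axis, bars for the exact 95% interval, counting error only) for all neurons (black), GABA clusters (green) and glutamate clusters (red), with dashed lines at 1.5 and 0.667. Grin3a, Grm3 and Gabra4 lie right of the dashed line in all 3, Gabre and Gabra5 lie left in all 3, and Grik3 lies on opposite sides in GABA and glutamate clusters.

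Clusters were divided by transmitter, as GABA clusters where the vesicular GABA transporter gene Slc32a1 had more UMIs than the glutamate transporter gene Slc17a6, and glutamate clusters otherwise. There were 2255 GABA and 1512 glutamate nuclei with the ARC hashtag, and 970 and 2104 with the PVH hashtag. The call was close in mixed ARC cluster 2 (575 nuclei), with Slc32a1 at 37.7 and Slc17a6 at 45.3 CPM. It was also close in mixed PVH cluster 3 (346 nuclei), at 46.0 and 57.5 CPM. The AGRP-like cluster, called GABA, had Slc32a1 at 36.7 and Slc17a6 at 13.1 CPM. Within GABA clusters, 12 of 41 receptor genes were higher and 2 lower with the PVH hashtag, where 5.33% of all genes were higher and 6.69% lower (12.0% in either direction). Within glutamate clusters, 8 of 42 were higher and 4 lower, where 3.43% were higher and 3.35% lower (6.78% in either direction). Without the mixed clusters, which were all glutamate clusters, these became 9 and 7 of 39. The shares of all genes then rose too, to 5.51% higher and 5.27% lower. Of 41 genes tested in both classes, 6 were past the fold the same way in both, as were 2.46% of the 11912 genes of any kind tested in both. Grin3a, Grm3 and Gabra4 were among those higher, and Gabre and Gabra5 were lower.

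In GABA clusters Gabrb2 stood at 153 CPM (142 to 164) with the PVH hashtag and at 52.3 CPM (48.3 to 56.7) with the ARC hashtag, a ratio of 2.93 (2.63 to 3.26). Grin3a (143 against 57.6 CPM, ratio 2.48), Grik3 (230 against 95.3 CPM, ratio 2.42), Gria3 (298 against 145 CPM, ratio 2.05) and Grm3 (104 against 56.2 CPM, ratio 1.84) followed. Grm5 stood at 1070.8 against 628 CPM (ratio 1.71). Gabrg3, Gabra4 and Glra3 had ratios from 1.51 to 1.63, while Gabre (0.423) and Gabra5 (0.569) were lower. In glutamate clusters the largest ratios were those of Glra1 (43.6 against 17.9 CPM, ratio 2.43, 2.02 to 2.95), Grin3a (173 against 81.1 CPM, ratio 2.14) and Glra2 (44.5 against 22.1 CPM, ratio 2.02). Grm3, Gabra4, Grm4 and Grik1 had ratios from 1.53 to 1.77. Grik3 was lower at 48.2 against 117 CPM (ratio 0.410, 0.369 to 0.456), as were Gabre (ratio 0.604), Glra3 (ratio 0.614) and Gabra5 (ratio 0.658).

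Comparing transmitter classes within a hashtag, 5 of 42 receptor genes were higher and 4 lower in GABA than in glutamate clusters of the ARC hashtag, where 2.97% of all genes were higher and 3.74% lower (6.71% in either direction). Without mixed clusters the counts were 7 and 3 of 41, where 4.40% of all genes were higher and 3.75% lower. Grik1 stood at 406 CPM (395 to 418) against 183 CPM (174 to 193), a ratio of 2.22. Glra2 (45.9 against 22.1 CPM, ratio 2.08), Gabre (20.6 against 9.96 CPM, ratio 2.07), Glra1 (28.1 against 17.9 CPM, ratio 1.57) and Gria4 (1143.5 against 739 CPM, ratio 1.55) were also higher in GABA clusters. Glra3 was lower at 57.3 CPM (53.0 to 61.8) against 144 CPM (136 to 153), a ratio of 0.398, with Gabrb2 (52.3 against 110 CPM, ratio 0.478) and Grm3 (56.2 against 106 CPM, ratio 0.530). Without mixed cluster 2 the ratio of Grm3 was 0.729, inside the fold. The calls depended on how the classes were set. With classes set per nucleus, by a UMI of 1 transporter gene and none of the other (553 GABA and 536 glutamate nuclei), Grik1 (1.498), Glra2 (1.49), Glra1 (1.42), Gria4 (1.38), Gabrb2 (0.719) and Grm3 (0.718) came inside the fold, while Gabre (1.96) and Glra3 (0.327) stayed past it. Of the 38 receptor genes with enough UMIs in those nuclei, which left out Gabre, 0 were higher and 1 was lower. The share of all genes past the fold in those nuclei is not reported here, so this count has no background to be set against. With the PVH hashtag 3 of 41 were higher and 1 lower, where 2.85% of all genes were higher and 4.29% lower (7.14% in either direction). Without mixed clusters these became 7 and 2 of 40, where 4.45% of all genes were higher and 4.74% lower. Grik3 stood at 230 CPM (217 to 244) in GABA clusters against 48.2 CPM (44.3 to 52.3), a ratio of 4.78 (4.32 to 5.30). Gabrg1 was higher (167 against 101 CPM, ratio 1.65) and Grm3 lower (104 against 187 CPM, ratio 0.554). With classes set per nucleus (435 and 801 nuclei), 2 of 38 were higher and 0 lower, again without the share of all genes. Grik3 stayed past the fold (3.61), and Gabrg1 (1.46) and Grm3 (0.747) did not.

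AGRP-like neurons (733 nuclei) had few receptor genes above, and many below, the other 3034 ARC neurons. Of 42 genes, 2 were higher and 13 lower, where 4.63% of all genes were higher and 8.34% lower (13.0% in either direction). Without mixed cluster 2 the counts were 3 and 12 of 41, where 4.70% of all genes were higher and 7.94% lower. The median ratio was 0.779 over receptor genes and 1.01 over all genes. Non-neuronal markers summed to 400.4 CPM in AGRP-like neurons and 480.1 CPM in the rest. Gabre stood at 29.95 CPM (24.8 to 35.8) against 12.8 CPM (11.04 to 14.7), a ratio of 2.35 (1.85 to 2.96). Glra2 stood at 53.6 CPM against 31.8 CPM, a ratio of 1.69 (1.43 to 1.99). The lowest ratio was that of Grik3, at 23.4 CPM (18.9 to 28.7) against 124.9 CPM (119 to 131), or 0.187 (0.151 to 0.231). Grin3a stood at 25.4 against 77.8 CPM (ratio 0.327) and Gabra4 at 11.6 against 33.3 CPM (ratio 0.348). Glra1 (10.1 against 27.5 CPM), Grm4 (2.27 against 6.12 CPM, 9 UMIs in AGRP-like neurons), Gabrb2 (32.2 against 86.7 CPM), Grik1 (137 against 361 CPM), Grm5 (305 against 783 CPM), Glra3 (43.0 against 105 CPM) and Gria3 (84.3 against 188 CPM) had ratios from 0.366 to 0.450. Grm3 followed at 0.479. By contrast Gria2, Gria4, Grin1, Grin2a and Gabrb1 differed from the rest by less than 1.2-fold.

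POMC-like neurons (283 nuclei) also had 2 genes higher and 13 lower of 42. Of all genes, 4.88% were higher and 10.2% lower (15.1% in either direction). Without mixed cluster 2 the counts were 3 and 13 of 41, where 4.83% of all genes were higher and 9.55% lower. The median ratio was 0.878 over receptor genes and 0.985 over all genes. Non-neuronal markers summed to 291 CPM in POMC-like neurons and 479.8 CPM in the rest. Gabrg3 stood at 1415.6 CPM (1358.9 to 1474.1) against 675 CPM (663 to 687) in the other ARC neurons, a ratio of 2.10 (2.01 to 2.19), the highest level on the ARC side. Grik1 was lowest at 24.8 CPM (17.8 to 33.6) against 342 CPM (334 to 351), a ratio of 0.0723 (0.0518 to 0.0982). The alpha glycine subunits Glra1 (5.44 against 25.7 CPM, ratio 0.212) and Glra2 (9.06 against 38.7 CPM, ratio 0.234) and the GABAA subunit Gabra4 (7.25 against 30.9 CPM, ratio 0.235) rested on 9, 15 and 12 UMIs in POMC-like neurons. Grm4 had 3 UMIs there (ratio 0.320, 0.0649 to 0.962) and Glra4 had 5 (ratio 0.481, 0.153 to 1.16), so that the interval of Glra4 included 1. Grin3a (32.6 against 70.4 CPM), Grik3 (51.3 against 109 CPM) and Grid1 (355 against 633 CPM) had ratios from 0.464 to 0.561. Gabra2, Gria4 and Gabrg1 were near the fold, at 0.584 to 0.590. Grm3, at 105 against 73.8 CPM, was inside the fold with mixed cluster 2 (ratio 1.42) and past it without (ratio 1.81).

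**Figure D4:**
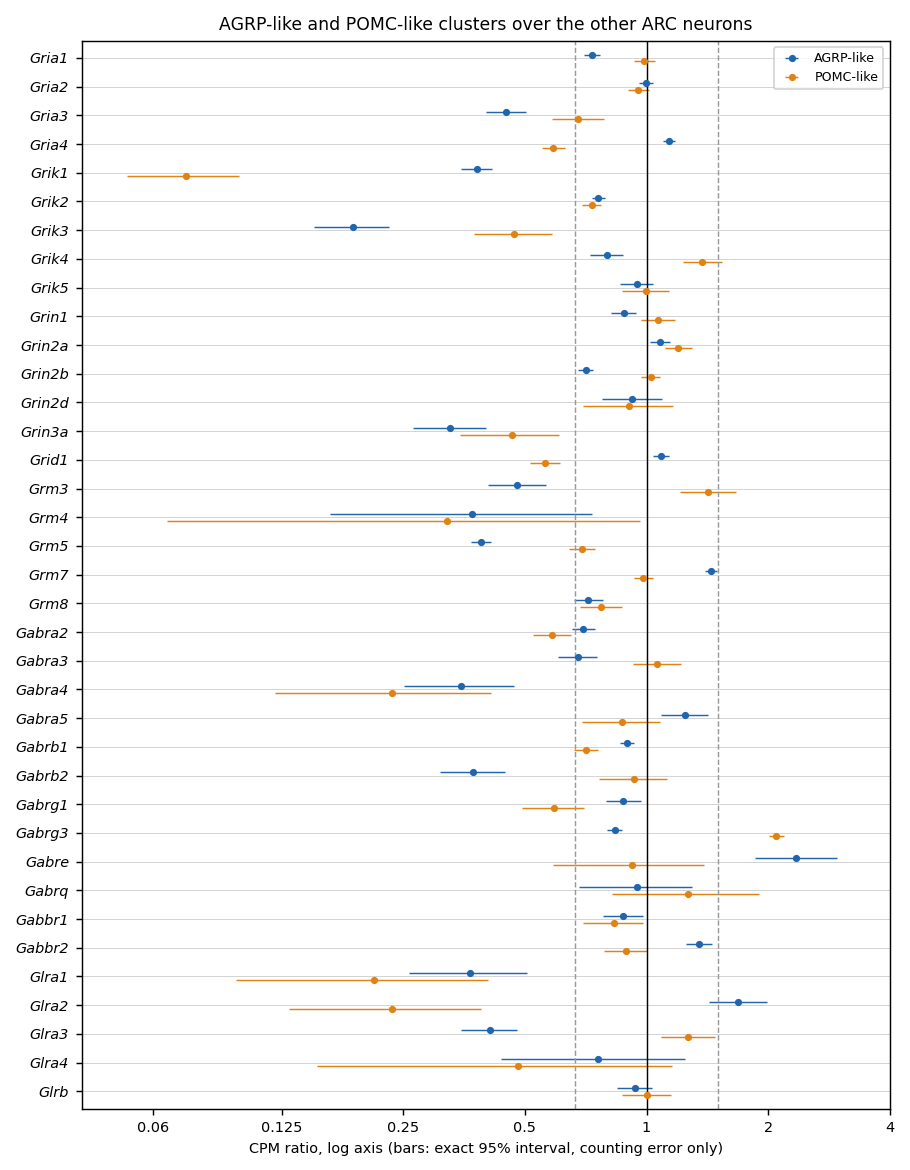
CPM ratio of AGRP-like (blue) and POMC-like (orange) neurons over the other ARC neurons (log axis, bars for the exact 95% interval, counting error only), with dashed lines at 1.5 and 0.667. Glra2 lies right for AGRP-like (1.69) and left for POMC-like neurons (0.234), Grik1 lies left for both (0.380 and 0.0723), and Gria2, Grik5 and Glrb lie near 1 for both.

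Set directly against each other, AGRP-like and POMC-like neurons differed past the fold in 7 genes higher and 8 lower of 37, where 7.58% of all genes were higher and 5.99% lower (13.6% in either direction). Glra2 (53.6 against 9.06 CPM) was 5.92 times as high in AGRP-like neurons (3.51 to 10.8) and Grik1 (137 against 24.8 CPM) 5.55 times (4.04 to 7.82). Gabre (ratio 1.98), Grid1 (650 against 355 CPM, ratio 1.83) and Gria4 (1080.8 against 597 CPM, ratio 1.81) were also higher. Glra3 (43.0 against 115 CPM, ratio 0.375), Grm3 (41.0 against 105 CPM, ratio 0.390), Gabrg3 (638 against 1415.6 CPM, ratio 0.451), Gabrb2 (32.2 against 70.7 CPM, ratio 0.456) and Grik3 (23.4 against 51.3 CPM, ratio 0.456) were lower in AGRP-like neurons. Grik4 and Grm5 were lower at 0.625 each. The classes thus differed in opposite directions for Glra2 and Glra3, and for Grik1 and Grik3.

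Genes for auxiliary subunits and scaffolds, from a list of 41, were read in the same way. In AGRP-like neurons 4 of 35 were higher and 6 lower, where 4.63% and 8.34% of all genes were, and 4 and 5 of 34 without mixed cluster 2. Kctd16, an auxiliary subunit of GABAB receptors, stood at 1152.3 CPM against 326 CPM in the other ARC neurons (ratio 3.53), while its relative Kctd8 stood at 18.6 against 92.5 CPM (ratio 0.201). Cacng5, an AMPA receptor partner, stood at 26.7 against 8.76 CPM (ratio 3.04) and Neto2, a kainate receptor partner, at 79.5 against 45.0 CPM (ratio 1.77). Its relative Neto1 (11.3 against 49.9 CPM, ratio 0.227) and the AMPA partner Cnih3 (2.52 against 11.2 CPM, ratio 0.224) were lower. In POMC-like neurons 2 of 35 were higher and 10 lower, where 4.88% and 10.2% of all genes were, and 1 and 10 of 34 without mixed cluster 2. Nptx2 (13.9 against 4.88 CPM, ratio 2.85) and Cacng5 (26.6 against 11.1 CPM, ratio 2.39) were the pair past the fold, and Homer1 was inside it (ratio 1.32). Gsg1l (ratio 0.284), Kctd8 (ratio 0.362) and Neto2 (ratio 0.374) were lowest. Kctd16 was 4.14 times as high in AGRP-like as in POMC-like neurons, and Neto2 3.87 times. The GABAB receptor genes themselves differed less, with Gabbr2 at 239 CPM in AGRP-like and 170 CPM in POMC-like neurons.

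The other named ARC classes had their own members. In the KNDy-like cluster (211 nuclei) 2 of 42 genes were higher and 19 lower, where 7.67% of all genes were higher and 15.2% lower, and 2 and 18 of 41 without mixed cluster 2. Glra3 was 5.65 times (5.06 to 6.30) and Grin2a 1.88 times as high as in the rest, the latter at 655 CPM. Glra1 (4 UMIs, ratio 0.152) was among the lowest. The GHRH-like cluster (204 nuclei) had 6 higher and 10 lower, where 6.22% of all genes were higher and 14.1% lower, and 7 and 9 of 41 without mixed cluster 2. Grik1 (ratio 4.53, 4.26 to 4.82) and Glra1 (ratio 2.61) led, Glra4 had 12 UMIs there (ratio 1.95, 0.974 to 3.54), and Grm7 (ratio 0.140) and Grm8 (ratio 0.163) were lowest. The VMH-like cluster (194 nuclei) had 11 higher and 3 lower, where 6.44% were higher and 16.9% lower, and 10 and 4 of 41 without mixed cluster 2. Grm5 stood there at 1934.5 CPM (ratio 3.17), Glra1 at 64.2 CPM (ratio 2.97) and Grm4 at 18.3 CPM (20 UMIs, ratio 4.01), while Grik1 (ratio 0.367) was lowest. The dopaminergic-like cluster (184 nuclei) had 10 higher and 8 lower, where 6.42% were higher and 15.7% lower, and 9 and 9 of 41 without mixed cluster 2. Gabra4 (ratio 3.83), Glra2 (ratio 3.50) and Grm4 (10 UMIs, ratio 2.09) led, and Glra3 (ratio 0.153) and Gabra5 (ratio 0.247) were lowest. Without mixed cluster 2, 5.98% to 7.42% of all genes were higher and 13.3% to 16.5% lower in the clusters of this paragraph. The VMH-like cluster had more receptor genes higher than lower, as did the dopaminergic-like cluster (10 and 8), though not without mixed cluster 2 (9 and 9). The KNDy-like and GHRH-like clusters had more lower than higher, as did the AGRP-like and POMC-like neurons above.

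Sim1 is known as the transcription factor that neurons of the paraventricular hypothalamus need to form. In the 7 PVH clusters rich in Sim1 (1109 nuclei), 1 of 41 receptor genes was higher and 8 were lower than in the other 1965 PVH neurons. Of all genes, 4.11% were higher and 5.71% lower (9.83% in either direction). The other neurons include mixed PVH cluster 1 (488 nuclei), with Sim1 at 76.5 CPM, against 200.5 to 380.4 CPM in the Sim1 clusters. With Sim1 set per nucleus, 7 of the 9 ratios past the fold moved in size, 0 changed direction and 1 came within 1.5-fold. Without mixed clusters the counts were 1 and 11 of 40, where 4.90% of all genes were higher and 5.44% lower. The median ratio was 0.807 over receptor genes and 0.978 over all genes. Non-neuronal markers summed to 371 CPM in the Sim1 clusters and 449 CPM in the rest. Grm3 stood at 245 CPM (233 to 257) against 111 CPM (104 to 117), a ratio of 2.21 (2.05 to 2.39), and ran from 81.5 to 540 CPM over the 7 clusters. Grik3 stood at 11.8 CPM (9.34 to 14.8) against 159 CPM (152 to 167), a ratio of 0.0744 (0.0584 to 0.0935), and from 5.43 to 23.99 CPM in the 7 clusters against 44.0 to 314 CPM in the other 8, with no overlap. Grik2 (537 against 1249.3 CPM, ratio 0.430), Grm5 (490 against 1078.4 CPM, ratio 0.455), Gabra5 (24.9 against 46.6 CPM, ratio 0.534), Gabrg3 (657 against 1171.2 CPM, ratio 0.561), Gabra3 (92.1 against 146 CPM, ratio 0.631) and Grm4 (7.23 against 11.2 CPM, ratio 0.648) were lower. Among auxiliary genes 1 of 35 was higher and 5 were lower, where 4.11% and 5.71% of all genes were, and 1 and 5 of 34 without mixed clusters, with Kctd16 at 139 against 383 CPM and Kctd8 at 47.2 against 114 CPM.

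The Sim1 clusters were not alike. Cluster 14 (89 nuclei) had 7 of 41 genes higher and 25 lower than the other PVH neurons, where 8.80% of all genes were higher and 21.7% lower, and 7 and 24 of 40 without mixed clusters. Grm3 (ratio 3.60), Grin3a (ratio 2.55) and Grm7 (1823.9 CPM, ratio 2.10) led, and Grik3 (3 UMIs, ratio 0.0517, 0.0106 to 0.151) was lowest. Cluster 11 (106 nuclei) had 5 higher and 22 lower, where 8.78% were higher and 20.6% lower, and 6 and 22 of 40 without mixed clusters. Grin2a stood there at 1137.0 CPM (1064.0 to 1213.7) against 346 CPM, a ratio of 3.28, and Grm3 had a ratio of 2.40. Glra2 (2 UMIs, ratio 0.0486, 0.00588 to 0.176) and Glra3 (5 UMIs, ratio 0.0686) were lowest. Its nuclei were also the deepest, at a median of 7133.5 UMIs per nucleus. Without mixed clusters, 8.44% of all genes were higher in each of clusters 14 and 11, and 19.6% and 18.9% were lower. Cluster 6 led in Glra1 (95.2 CPM, ratio 2.70), Grm4 (ratio 2.17) and Grm8 (554 CPM, ratio 2.08), cluster 8 in Glra1 (ratio 3.49) and Glra3 (238 CPM, ratio 3.08), cluster 4 in Grm3 and Grik4 (242 CPM, ratio 1.88), cluster 10 in Grm8 (ratio 1.56) and cluster 12 in Grid1 (ratio 2.14).

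Some genes that sit side by side had like profiles over the 28 clusters. Pearson's r of log2(CPM + 1) is given as a description only, since the clusters share 1 library, its depth and any free RNA. Over all 861 pairs of the 42 genes the median r was 0.149, with quartiles at -0.0480 and 0.342. Gria2 and Glrb, neighbours on chromosome 3, had r = 0.764. On chromosome 5, Gabra2, Gabra4 and Gabrb1 had r from 0.641 to 0.689 with each other, but Gabrg1 had r from 0.00229 to 0.134 with these. On the X chromosome the values were 0.286 to 0.472. Grik3 and Gabbr1, on different chromosomes, had r = 0.737. Grm3 was opposed to others, with r = -0.693 to Gabrg1 and -0.626 to Gabbr1.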

How the data were processed

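Nuclei of mouse hypothalamus, labelled ARC, were sorted for NeuN and captured with 10x Genomics Chromium v3 chemistry. The authors deposited whole-number UMI counts per gene and nucleus, with hashtag counts in the same matrix. The submitters' processing notes name Cell Ranger 5.0, Seurat 4 and mm10, whereas the matrix header names Cell Ranger 4.0.0. The sources used here do not say whether reads in introns were counted, which would favour long genes.

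From the deposited counts, nuclei with 800 to 5000 genes, at most 12000 UMIs and at most 1% mitochondrial UMIs were kept. Hashtags were assigned with HTODemux (positive quantile 0.8), which also removed 944 hashtag doublets and left 2385 nuclei unassigned, and no other doublet caller was run. Each hashtag was clustered with Seurat 5.3.0 (2000 variable genes less the receptor genes, 30 components, 20 neighbours, Leiden resolution 0.55). UMIs totalled 19492658 in ARC and 16732895 in PVH neurons, with medians of 4827 and 5039 per nucleus.

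A class name required the leading marker of its list plus others, together 3 or more, each at 1.5-fold with 3 or more UMIs, and was withheld where another class had more markers among the 10 leading genes. These thresholds came from earlier work on the data. Clusters with 3 or more markers of a non-neuronal type stayed unnamed. CPM came from summed UMIs, with exact 95% Poisson intervals, and ratios had exact binomial intervals (Python 3.11.15, scipy 1.17.1). On simulated counts with 3-fold changes, 192 of 192 changed genes were found for PVH against ARC neurons. There 0.346% of 13878 unchanged genes passed the fold. For AGRP-like against POMC-like neurons 170 of 170 were found, and 1.25% of 8401 unchanged genes passed. The simulated counts came from 1 pooled profile with counting error only, without differences between nuclei or animals. They cannot show how reliable the ratios from 1 pooled sample are, least of all those near the fold. Per comparison, up to 12 genes past the fold were given in full by size of ratio, and per class the 3 highest and 2 lowest. Auxiliary genes were given by count and the 3 furthest each way, in part. Values of some receptor genes are not reported here, although counts, medians and ranks cover all of them. The genes and lists were chosen with earlier results of these data known.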

Additional observations from a re-analysis of the deposited data

Results flagged for a closer look

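Grik3 and Glra3 differed between the hashtags in opposite directions in GABA and glutamate clusters. For Grik3 the CPM ratio of PVH over ARC was 2.418 in GABA clusters and 0.4103 in glutamate clusters. For Glra3 the ratios were 1.514 and 0.6143. With 1 pooled sample, these differences between the classes were not tested. The PVH glutamate nuclei include the Sim1 clusters, where Grik3 ran from 5.43 to 23.99 CPM.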

How the results depend on the processing

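No paired analysis was possible because the series has 1 pooled sample and no replicates, so that no replicate could be left out either. Of 128 recomputed counts of genes past the fold, 114 stayed within 1.5 times the main count. At a fold of 2 in place of 1.5, the count was 4 in place of 11 for PVH against ARC neurons, 7 in place of 14 in GABA clusters and 4 in place of 12 in glutamate clusters. It was 5 in place of 9 for GABA against glutamate clusters of ARC, 2 in place of 4 for those of PVH, 8 in place of 15 for AGRP-like against POMC-like neurons and 5 in place of 9 for Sim1 clusters. The comparison of GABA with glutamate clusters of PVH, with 4 genes in the main setting, gave 8 with no upper limits on genes and UMIs, 7 with 20 principal components and 9 without mixed clusters, an alternative chosen after seeing the data. Classes set per nucleus gave 2 there and 1 for ARC. A hashtag quantile of 0.99, which kept 407 PVH nuclei, gave 16 for Sim1 clusters and left no PVH GABA cluster, so 2 comparisons had no value. Thinning each nucleus to 1000 UMIs gave 8 for AGRP-like against POMC-like neurons. The cause was not tested. Of 104 gene ratios past the fold, 0 changed direction in 1469 recomputed values, and 32 of the 104 came within 1.5-fold under at least 1 alternative. The recomputed values include 104 from the fold of 2 and 104 from a minimum of 20 UMIs. Those settings change only the threshold and not the ratio, so these values could not change direction. Depth limits genes with few UMIs, such as Grm4 and Glra4.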
